A study of Mus musculus with 4 samples.

Results

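The genes described here are Trp53, which encodes the tumour suppressor p53, and 9 genes set with it as its inhibitors and direct targets: Mdm2, Mdm4, Cdkn1a, Ccng1, Btg2, Phlda3, Trp53inp1, Aen and Zmat3. They were chosen by gene symbol for their known role, and all 10 were found among the 22013 rows of the expression table. Poly(A) RNA came from C57BL/6 mouse blastocysts in 4 libraries, each a pool of 5 embryos. The 2 Ywhaz knockout libraries came from embryos given CRISPR-Cas9 against Ywhaz as zygotes, by the labels. The names of these libraries begin with "si", a prefix the labels do not explain. The 2 control libraries came from embryos labelled wild type. For the control treatment the labels differ, naming a control guide, Cas9 protein with no guide, and no treatment. All embryos were grown in culture after superovulation of the females. Ywhaz encodes 14-3-3 zeta, an adaptor that binds phosphorylated proteins, and zygote editing can leave a mixture of edited and unedited cells in an embryo. Values are FPKM, an expression level scaled by transcript length and library depth.

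p53 is a transcription factor that is made constantly and destroyed constantly. MDM2, a ubiquitin ligase, marks it for degradation, and MDM4, a paralogue of MDM2, blocks its activation domain. After DNA damage and other stress p53 protein is stabilised, binds response elements near its target genes and raises their transcription. Because MDM2 is itself a target, the response limits itself. Since p53 is controlled mainly as a protein, its activity is usually read from target transcripts, with Cdkn1a and Mdm2 among the classical ones. The 14-3-3 proteins are linked to this pathway, as they bind phosphorylated MDM4 and p53, and 14-3-3 sigma is the product of a p53 target gene.

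Depth was estimated from the spacing of the lowest FPKM values at 16900000 to 17800000 fragments per library, which makes 1 FPKM on a transcript of 2 kb about 30.4 to 32.1 fragments. Ywhaz itself measured 32.7 and 98.2 FPKM in knockout libraries 1 and 2, against 143 and 123 FPKM in control libraries 1 and 2, so the knockout pools differed widely in the targeted transcript. Its log2 fold change, −1.21 ± 0.39 (SE), did not pass over all genes (limma adjusted p = 0.305). Edited alleles can still be transcribed, so this is an incomplete check of the editing. All 8 trophectoderm and 9 epiblast markers were above 0 in every library, as were 7 of 8 primitive endoderm markers. Foxa2 was the exception, listed at 0 in both knockout libraries and at 0.028 and 0 FPKM in control libraries. The 10 cumulus and granulosa markers summed to 1.43 and 1.61 FPKM in knockout libraries and to 1.90 and 1.63 FPKM in control libraries. The 8 trophectoderm markers summed to 230 and 354 FPKM in knockout libraries and to 238 and 188 FPKM in control libraries, the 9 epiblast markers to 459 and 515 against 411 and 365 FPKM, and the 8 primitive endoderm markers to 431 and 642 against 566 and 407 FPKM, most of it from Dab2. Among tested markers, log2 fold changes were positive in 6 of 8 for trophectoderm, 7 of 9 for epiblast and 1 of 5 for primitive endoderm, against 56.0% of all genes tested. Their medians were 0.47, 0.19 and −0.27, against 0.05. Single lineage markers stood apart by group without passing limma over all genes. At an unadjusted limma p under 0.05, reached by 11.1% of all genes tested, Hand1, Tfap2c and Krt18 (trophectoderm) and Pou5f1 and Nanog (epiblast) were higher in knockout pools, and Elf5 (trophectoderm), Sparc and Sox17 (primitive endoderm) were lower. Hand1 measured 4.33 and 5.19 FPKM in knockout libraries, against 1.11 and 1.14 FPKM in control libraries (limma adjusted p = 0.0982), and the authors' deposited table lists its FDR as 0.0022. Pou5f1 measured 179 and 201 FPKM in knockout libraries, against 115 and 121 FPKM in control libraries (limma adjusted p = 0.257). The 8 oocyte markers summed to 12.6 and 9.27 FPKM in knockout libraries and to 8.55 and 11.7 FPKM in control libraries, and the 8 blood markers to 33.6 and 22.1 against 23.3 and 34.8 FPKM. Their part in the values given next was not tested. The labels do not tie a pool to its parents or culture day, so the p-values here stand for the spread between pools alone, which may be technical.

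p53 targets stood at very different levels in the blastocyst, and the order was nearly the same in both groups. Cdkn1a, which encodes the CDK inhibitor p21, was the most abundant of the 10 genes, with a mean of 354 FPKM over the 4 libraries. Cdkn1a stood above 95.4% of the 9544 genes expressed highly enough to be tested. It was followed by Ccng1 at 96.5, Trp53 at 89.5, Btg2 at 61.3 and Phlda3 at 41.4 FPKM. Aen averaged 16.8, Mdm2 11.5, Mdm4 11.3, Trp53inp1 10.2 and Zmat3 3.38 FPKM over the 4 libraries. Neighbours in this order whose ranges over the 4 libraries overlapped were Ccng1 and Trp53, Aen and Mdm2, Mdm2 and Mdm4, and Mdm4 and Trp53inp1. The ranking by group mean differed at 1 place, with Ccng1 above Trp53 in knockout pools and below it in control pools. The 9 genes other than Trp53 summed to 664 and 574 FPKM in knockout libraries and to 583 and 606 FPKM in control libraries, and Cdkn1a alone made 55.8% to 61.99% of each sum.

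**Figure D1:**
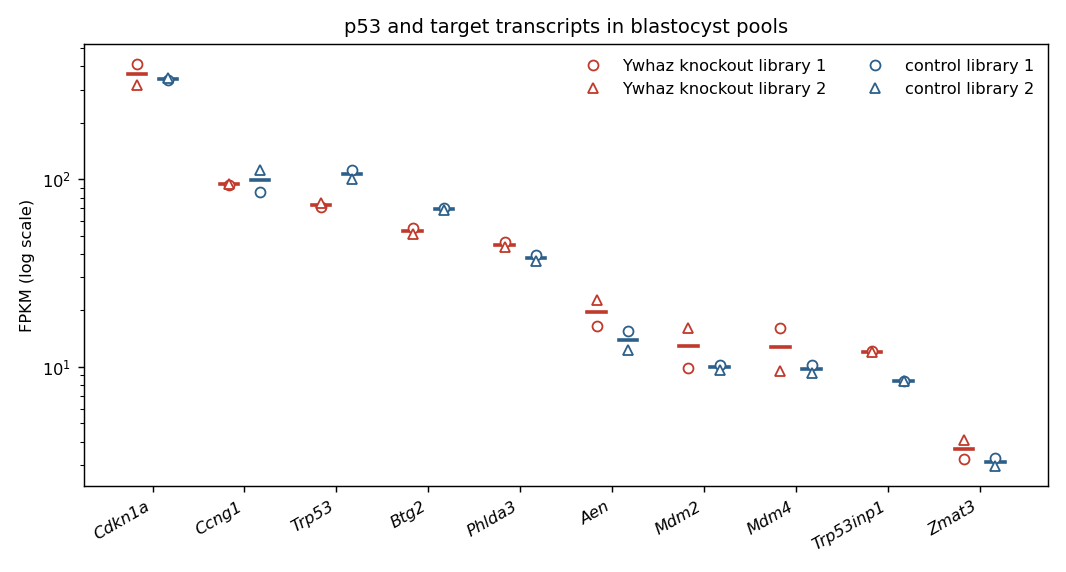
FPKM (log axis) of the 10 genes, in order of their mean level, in each knockout library (red, left) and control library (blue, right). Circles are library 1, triangles library 2 and bars the group means. Cdkn1a stands highest near 354 FPKM and Zmat3 lowest near 3.38 FPKM, and the groups stand apart in Trp53, Btg2, Phlda3, Aen and Trp53inp1.

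Sequence around the transcript start is printed for the genes whose window held the p53 decamer consensus. Binding of p53 was not measured. In this consensus 3 purines, a core of C, A or T, A or T, and G, and 3 pyrimidines follow each other. It is its own reverse complement, so a search of one strand covers both. RefSeq windows of GRCm38.p6, from 250 bases before to 50 bases after a transcript start, were at hand for 8 of the 10 genes, all but Trp53inp1 and Zmat3. The decamer was present in 5 of these 8 genes, against 9.55% of the 27025 genes with a window and 12 of 38 other p53 targets. The genes were chosen as p53 targets, so this describes them and tests nothing. The decamer is in capitals, and each stretch is given 5′ to 3′ on the strand of its gene.
Trp53 (chr11:69580259-69580318, plus strand): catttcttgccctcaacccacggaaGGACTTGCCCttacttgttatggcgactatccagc
Mdm2 (chr10:117710910-117710969, minus strand): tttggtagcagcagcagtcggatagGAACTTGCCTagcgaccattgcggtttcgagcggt
Cdkn1a (chr17:29090892-29090951, plus strand): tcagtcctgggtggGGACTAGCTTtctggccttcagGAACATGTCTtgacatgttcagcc
Ccng1 (chr11:40755437-40755496, minus strand): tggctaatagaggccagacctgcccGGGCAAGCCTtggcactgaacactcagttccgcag
Aen (chr7:78895927-78895956, plus strand): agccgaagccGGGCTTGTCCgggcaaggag

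A p53 response element is a pair of such decamers, separated by at most 13 bases. Cdkn1a was the 1 gene of the 8 with an exact pair in its window, where its decamers begin 73 and 51 bases before the upstream of its 2 annotated starts and lie 12 bases apart. The capitals mark exact decamers only. The bases printed in lower case directly after the downstream Cdkn1a decamer form another decamer with 1 mismatch, and so a pair with no bases between. Which of these pairs p53 binds was not tested. An exact pair was present in 0.074% of all genes with a window. With 1 mismatch allowed, Ccng1 also held a pair, as did 1.24% of all genes with a window. The single decamer of Trp53 begins 75 bases before its start, that of Mdm2 186 bases, and that of Aen 121 bases before the downstream of its 2 annotated starts. The Aen decamer thus lies after the upstream start. A single decamer is not such a pair, and whether p53 binds there was not tested. No decamer was found in the windows of Mdm4, Btg2 and Phlda3, which says only that these letters are not in these windows. For all 8 genes, elements further upstream or further into the gene were not searched.

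Over the 10 genes as a whole, no change passed the test. Each was tested with limma on log2(FPKM + 1) in a fit of all 9544 genes averaging 1 FPKM or more, and fold changes throughout are knockout minus control on that scale. At a limma adjusted p under 0.05, 0 of the 10 were called, against 0.0733% of all genes tested (0.0314% higher and 0.0419% lower in knockout pools). At an unadjusted limma p under 0.05 there was 1, Trp53, which was lower, against 11.1% of all genes tested (7.75% higher and 3.33% lower). By the authors' deposited table, 0 of the 10 had an FDR under 0.05, against 0.241% of all its 22013 rows, and 3 had an unadjusted p under 0.05, against 4.93% of all rows. Those rows include 4858 at 0 in every library, so these 2 shares are not a like background for 10 expressed genes. Of the 10 log2 fold changes 7 were positive, against 56.0% of all genes tested, and their median was 0.20, against 0.05. The knockout and control libraries did not overlap in 5 of the 10, against 41.4% of all genes tested. Knockout was the higher in 3 of these (Phlda3, Trp53inp1 and Aen), against 27.4% of all genes tested, and the lower in 2 (Trp53 and Btg2), against 14.0%, so these shares were near the background. In 9 of the 10 the 95% interval lay within 1 unit of no change on the log2(FPKM + 1) scale, with Aen just outside. The upper limit of Trp53inp1, 0.98, was close to this bound. Because 1 is added to each FPKM, the bound is not a 2-fold change in FPKM for genes of low level. With 2 against 2 libraries an exact permutation test of 1 gene cannot go below p = 0.333.

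**Figure D2:**
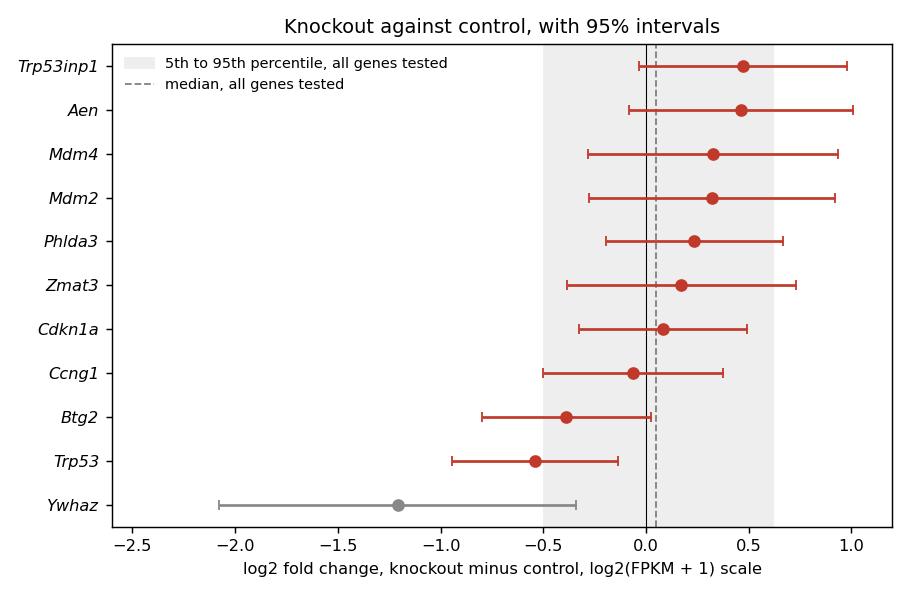
Log2 fold change, knockout minus control, of the 10 genes (red) and of Ywhaz (grey), with 95% intervals from limma. The shaded band runs from the 5th to the 95th percentile of all 9544 genes tested (−0.50 to 0.62) and the dashed line is their median, 0.05; of the 10 genes, the interval of Trp53 alone leaves out 0.

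Trp53 had the smallest p of the set. The gene lies on chromosome 11 (plus strand, positions 69580359 to 69591873 of GRCm38, the build used for positions throughout). It measured 70.9 and 74.4 FPKM in knockout libraries, against 112 and 101 FPKM in control libraries. Both knockout libraries were therefore below both control libraries, and the gap between the groups was wider than the spread within either. The means were 72.6 ± 2.43 FPKM in knockout pools and 106 ± 7.69 FPKM in control pools (SD, n = 2 each), which puts the knockout level at 68.3% of the control level. The log2 fold change was −0.54 ± 0.18 (SE), with a 95% interval of −0.95 to −0.14, and did not pass over all genes (limma adjusted p = 0.327). A larger change in either direction was seen in 11.5% of all genes tested, and a smaller p in 4.13%. The authors' deposited table gives Trp53 a log2 fold change of −0.55, a p of 0.00428 and an FDR of 0.318. In bulk RNA from whole embryos, fewer cells of a type and less RNA per cell cannot be told apart. The level of p53 protein was not measured here.

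The 2 inhibitors of p53 had nearly equal group differences that came from different knockout pools. Mdm2, on chromosome 10 (minus strand, positions 117688875 to 117710758), measured 9.82 and 16.2 FPKM in knockout libraries 1 and 2, against 10.3 and 9.59 FPKM in control libraries 1 and 2. Its high value was that of knockout library 2, while knockout library 1 lay between the controls. Mdm4, on chromosome 1 (minus strand, positions 132959484 to 133030561), measured 16.0 and 9.55 FPKM in knockout libraries 1 and 2, against 10.2 and 9.22 FPKM in control libraries 1 and 2. Here the high value was that of knockout library 1, and knockout library 2 lay between the controls.

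The group means were alike for both inhibitors. Mdm2 averaged 13.002 ± 4.49 FPKM in knockout and 9.93 ± 0.49 FPKM in control pools (SD, n = 2 each), with a log2 fold change of 0.32 and a 95% interval of −0.28 to 0.92 (limma adjusted p = 0.718). Mdm4 averaged 12.8 ± 4.58 FPKM in knockout and 9.72 ± 0.70 FPKM in control pools (SD, n = 2 each), with a log2 fold change of 0.32 and a 95% interval of −0.28 to 0.93 (limma adjusted p = 0.718). Both group differences rest on 1 knockout library each. The log2 fold change of Mdm2 was −0.013 without knockout library 2 and 0.65 without knockout library 1. That of Mdm4 was −0.021 without knockout library 1 and 0.67 without knockout library 2.

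The ratio of Mdm2 to Mdm4 was 0.613 and 1.69 in knockout libraries 1 and 2, against 1.01 and 1.04 in control libraries 1 and 2. The knockout pools thus stood on opposite sides of the controls, and their Mdm2 and Mdm4 values summed to 25.8 and 25.7 FPKM, against 20.5 and 18.8 FPKM in control libraries. Between the knockout libraries the log2 difference, library 1 minus library 2, was −0.67 for Mdm2 and 0.69 for Mdm4. A wider gap between the knockout libraries was seen in 10.6% of all genes tested for Mdm2 and in 9.71% for Mdm4. Knockout library 1 was also the library with the lower Ywhaz level, 32.7 against 98.2 FPKM. With 1 library at each Ywhaz level, the level and the library cannot be told apart.

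**Figure D3:**
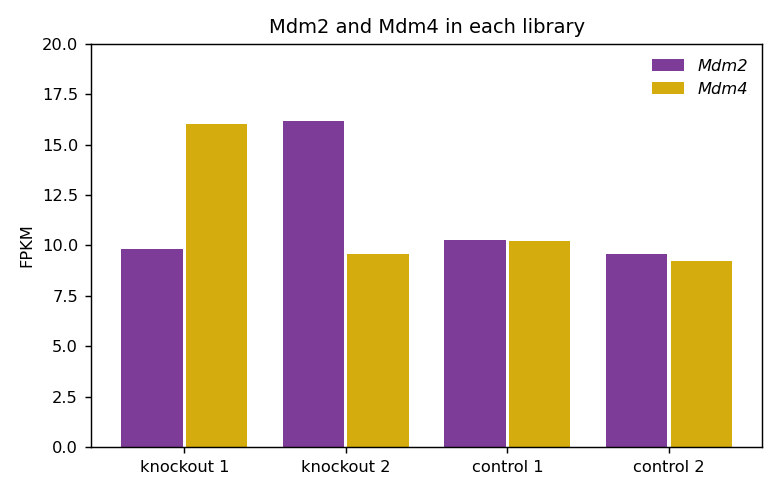
FPKM of Mdm2 (purple) and Mdm4 (yellow) in each knockout library and each control library; each bar is 1 library. In knockout library 1 Mdm4 stands above Mdm2, in knockout library 2 Mdm2 stands above Mdm4, and in both control libraries they are nearly level.

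The targets that act on cell division gave no common direction. Cdkn1a, on chromosome 17 (plus strand, positions 29090976 to 29100727), measured 412 and 320 FPKM in knockout libraries 1 and 2, against 340 and 346 FPKM in control libraries 1 and 2. The controls were close to each other and lay between the knockout libraries. Its log2 fold change was 0.08 ± 0.18 (SE), with a 95% interval of −0.32 to 0.49 (limma adjusted p = 0.903). In the annotation an antisense transcript of unconfirmed kind overlaps the span of Cdkn1a, as an antisense pseudogene overlaps that of Mdm4. Where exons overlap, reads counted without strand could not be separated. Whether exons overlap here was not examined. The sign of the Cdkn1a difference was not stable, at −0.098 without knockout library 1 and −0.0068 with median-of-ratios scaling.

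Ccng1 encodes cyclin G1, which recruits the phosphatase PP2A to MDM2, and lies on chromosome 11 (minus strand, positions 40748552 to 40755311). It measured 93.5 and 94.4 FPKM in knockout libraries, against 85.4 and 113 FPKM in control libraries, so both knockout libraries lay within the range of the controls. The log2 fold change was −0.06 ± 0.20 (SE), with a 95% interval of −0.50 to 0.38 (limma adjusted p = 0.941), and it was 0.14 without control library 2.

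Btg2, an antiproliferative gene whose product recruits the CCR4-NOT deadenylase to mRNAs, lies on chromosome 1 (minus strand, positions 134075170 to 134079120). It measured 54.8 and 51.2 FPKM in knockout libraries, against 70.5 and 68.8 FPKM in control libraries. Like Trp53, its 2 knockout values both lay below its 2 control values. The means were 52.97 ± 2.56 FPKM in knockout and 69.6 ± 1.25 FPKM in control pools (SD, n = 2 each), and the log2 fold change was −0.39, with a 95% interval of −0.80 to 0.02 (limma adjusted p = 0.475). The authors' deposited table gives Btg2 a p of 0.0348 and an FDR of 0.712.

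In 3 of the remaining 4 genes, Trp53inp1, Aen and Phlda3, both knockout libraries were above both controls, in Zmat3 they were not, and none of the 4 passed. Trp53inp1 encodes a nuclear stress protein that promotes p53-dependent cell death and takes part in autophagy, and lies on chromosome 4 (plus strand, positions 11156431 to 11174379). It measured 12.2 and 12.0 FPKM in knockout libraries, against 8.36 and 8.46 FPKM in control libraries. Replicates agreed closely and the groups did not overlap, with means of 12.1 ± 0.17 FPKM in knockout and 8.41 ± 0.07 FPKM in control pools (SD, n = 2 each). The log2 fold change was 0.47 ± 0.23 (SE), with a 95% interval of −0.03 to 0.98 (limma adjusted p = 0.477). Limma sets the error of a gene partly from genes of similar level, so it is larger here than these 4 values alone would give.

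Aen, an exonuclease gene that takes part in p53-dependent apoptosis, lies on chromosome 7 (plus strand, positions 78895854 to 78911209). It measured 16.5 and 22.9 FPKM in knockout libraries, against 15.5 and 12.3 FPKM in control libraries. The groups did not overlap, although knockout library 1 and control library 1 were close. The log2 fold change was 0.46 ± 0.25 (SE), with a 95% interval of −0.08 to 1.01 (limma adjusted p = 0.522), and leaving out knockout library 1 gave 0.69, against 0.24 without knockout library 2.

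Phlda3, whose product competes with AKT for membrane lipids, lies on chromosome 1 (plus strand, positions 135766119 to 135769136). It measured 46.3 and 43.4 FPKM in knockout libraries, against 39.4 and 36.6 FPKM in control libraries. The groups did not overlap, but the log2 fold change was 0.23 ± 0.19 (SE), with a 95% interval of −0.20 to 0.66 (limma adjusted p = 0.711). Zmat3, which encodes a zinc finger protein that binds RNA and affects splicing, lies on chromosome 3 (minus strand, positions 32334792 to 32366014). It measured 3.21 and 4.09 FPKM in knockout libraries, against 3.28 and 2.96 FPKM in control libraries, and knockout library 1 lay between the controls. Its log2 fold change was 0.17 ± 0.25 (SE), with a 95% interval of −0.39 to 0.73 (limma adjusted p = 0.846), and it was 0.31 without knockout library 1 and 0.034 without knockout library 2.

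The knockout pools did not share a ranking across the set. Knockout library 1 was the higher of the pair in 5 genes (Mdm4, Cdkn1a, Btg2, Phlda3 and Trp53inp1) and knockout library 2 in the other 5. The gap between replicates was wider in knockout than in control pools in 7 of the 10 genes, against 58.4% of all genes tested. Aen had the largest spread over the 4 libraries of the set, with a standard deviation of 0.35 on the log2(FPKM + 1) scale. The genes whose pattern over the 4 libraries was most like that of Aen were Cog2, a Golgi tethering complex subunit gene, Wbp11, which encodes a splicing factor, and the solute carrier gene Slc35e3. Their root mean square differences from Aen, each gene centred on its own mean, were 0.012, 0.014 and 0.017 on the log2 scale. Among 9290 genes compared, 323 lay within 0.1, so a likeness over 4 libraries is common.

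Other genes of the p53 pathway were read from lists made for their role, 105 symbols in all, of which 89 were tested. At a limma adjusted p under 0.05 there were 0, and at an unadjusted limma p under 0.05 there were 8. That is 8 of 89, against 11.1% of all genes tested, with the higher mean in knockout pools in 6 (7.75% of all genes tested) and the lower in 2 (3.33%), so the counts were near the background. Of the p53 family, Trp63 was listed at 0 in every library, and Trp73 measured 0.114 and 0.065 FPKM in knockout libraries, against 0.274 and 0.236 FPKM in control libraries, too low to be tested. The blastocysts thus held Trp53 transcript and almost none of its paralogues.

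Genes that activate or modify p53 had mostly positive fold changes. Of the 18 tested, 17 were positive, against 56.0% of all genes tested, with a median log2 fold change of 0.23 against 0.05. Positive values numbered 16 of 18 with median-of-ratios scaling and with quantile normalization, and 13 of 18 without knockout library 2. In 6 of the 18 both knockout libraries were above both controls, against 27.4% of all genes tested. Chek2, a kinase that phosphorylates p53 after DNA breaks, measured 47.1 and 50.3 FPKM in knockout libraries, against 30.3 and 32.1 FPKM in control libraries. Its log2 fold change was 0.63 ± 0.19 (SE; limma adjusted p = 0.297), and its groups did not overlap. Nbn, a subunit of the MRN complex that senses DNA breaks, measured 2.11 and 2.36 FPKM in knockout libraries, against 1.23 and 1.55 FPKM in control libraries (limma adjusted p = 0.541). Rpl5, a ribosomal protein gene whose product can bind MDM2, and Atm, the kinase gene of the DNA break response, had log2 fold changes of 0.29 and 0.34 (limma adjusted p = 0.577 and 0.658).

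Of 10 other inhibitors of p53, 8 had positive log2 fold changes, against 56.0% of all genes tested, with a median of 0.13 against 0.05. In 4 of the 10 both knockout libraries were above both controls, against 27.4% of all genes tested. Huwe1, a ubiquitin ligase gene, measured 18.8 and 14.2 FPKM in knockout libraries, against 13.6 and 10.3 FPKM in control libraries (limma adjusted p = 0.562). Smyd2, a methyltransferase gene, Cop1, a ubiquitin ligase gene, and Sirt1, a deacetylase gene, had log2 fold changes of 0.33, 0.33 and 0.31, with limma adjusted p of 0.659 to 0.699. Activators and inhibitors thus had medians of the same sign.

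**Figure D4:**
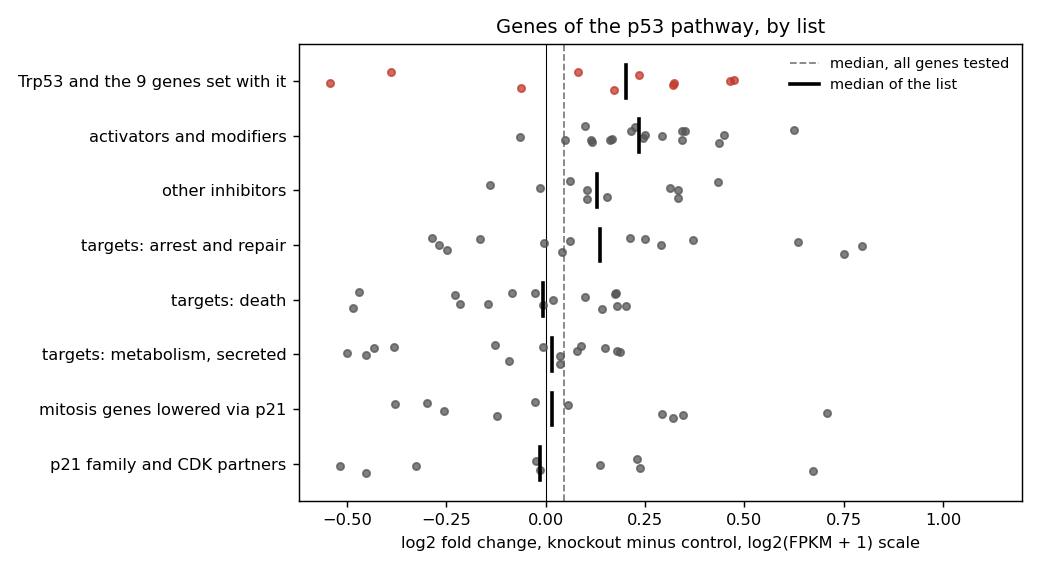
Log2 fold change, knockout minus control, of each tested gene in the 8 lists; 1 point is 1 gene, black bars are list medians and the dashed line is the median of all genes tested, 0.05. The points of most lists lie on both sides of 0, while 17 of 18 activators and modifiers lie above 0.

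Direct targets beyond the set had no common direction either. Of 43 tested in 3 lists, 23 had positive and 20 negative log2 fold changes, with a median of 0.04, close to the 0.05 of all genes tested. Of the 43, 0 passed a limma adjusted p under 0.05, against 0.0733% of all genes tested, and 4 had an unadjusted limma p under 0.05, against 11.1%. Among targets for arrest and repair 9 of 14 were positive, with a median of 0.14, and leaving out 1 library gave 6 (without control library 2) to 11 (without knockout library 1). Sfn, which encodes 14-3-3 sigma and belongs both to this list and to the family of Ywhaz, measured 467 and 442 FPKM in knockout libraries, against 260 and 263 FPKM in control libraries. Its log2 fold change of 0.80 ± 0.17 (SE) was the largest of the list and was short of the threshold (limma adjusted p = 0.173). With 1 library left out, the fold change of Sfn ran from 0.76 to 0.83. Gadd45a, a growth arrest and DNA damage gene, measured 1.65 and 3.20 FPKM in knockout libraries, against 0.916 and 1.06 FPKM in control libraries (limma adjusted p = 0.361). Plk2, a polo-like kinase gene, measured 9.75 and 13.9 FPKM in knockout libraries, against 6.78 and 7.54 FPKM in control libraries (limma adjusted p = 0.400). Ercc5, a nucleotide excision repair endonuclease gene, had a log2 fold change of 0.37 (limma adjusted p = 0.613).

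Targets for cell death had 7 of 15 positive log2 fold changes and a median of −0.01. Perp, which encodes a membrane protein of desmosomes and apoptosis, measured 226 and 194 FPKM in knockout libraries, against 265 and 317 FPKM in control libraries (log2 fold change −0.47, limma adjusted p = 0.391). Fas, a death receptor gene, measured 1.34 and 1.47 FPKM in knockout libraries, against 2.00 and 2.77 FPKM in control libraries (limma adjusted p = 0.506). Bax, the mitochondrial pore-forming death gene, measured 152 and 136 FPKM in knockout libraries, against 130.3 and 119.9 FPKM in control libraries (log2 fold change 0.20, limma adjusted p = 0.730). Perp and Fas were thus below the controls and Bax above them in both knockout libraries, all short of the threshold. Siva1, an apoptosis gene, and Pmaip1, which encodes NOXA, had log2 fold changes of −0.23 and 0.18 (limma adjusted p = 0.665 and 0.839).

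Among targets for metabolism and secreted factors 7 of 14 were positive, with a median of 0.02, and 4 were positive without knockout library 2. Gdf15, which encodes a secreted stress factor, measured 1.90 and 1.04 FPKM in knockout libraries, against 1.21 and 1.53 FPKM in control libraries, and the groups overlapped (limma adjusted p = 0.978). The members with the smallest p were Tnfaip8, Ak1, Abhd4 and Gls2, with log2 fold changes of −0.50, −0.45, −0.38 and −0.43 (limma adjusted p of 0.505 to 0.612). That of Abhd4 was −0.070 without knockout library 1 and −0.69 without knockout library 2.

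Downstream of p21, inhibition of CDKs lets the RB family and the DREAM complex repress mitosis genes. Of 10 such genes 5 had positive and 5 negative log2 fold changes, with a median of 0.02, and 7 were positive without knockout library 1, with a median of 0.27. Cdc20, whose product switches on the anaphase-promoting complex, measured 54.2 and 67.4 FPKM in knockout libraries, against 38.9 and 34.4 FPKM in control libraries (a log2 fold change of 0.71 ± 0.20 SE with limma adjusted p = 0.274). Among the mitotic cyclin genes, Ccnb1 had a log2 fold change of 0.29, Ccna2 of 0.35 and Ccnb2 of −0.38 (limma adjusted p of 0.553 to 0.602). That of Ccnb2 was −0.11 without knockout library 1 and −0.64 without knockout library 2.

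Of 9 tested genes for p21 relatives, CDKs, cyclins and RB proteins, 4 had positive and 5 negative log2 fold changes, with a median of −0.01. This count rests on single libraries, with 7 of 9 positive without knockout library 1 or without control library 1, 3 of 9 without knockout library 2 and 2 of 9 without control library 2. Cdk4, the kinase gene of early G1 phase, measured 252 and 277 FPKM in knockout libraries, against 380 and 345 FPKM in control libraries (a log2 fold change of −0.45 ± 0.17 SE with limma adjusted p = 0.378). Ccne2, which encodes cyclin E2, measured 9.34 and 10.2 FPKM in knockout libraries, against 4.72 and 6.99 FPKM in control libraries (log2 fold change 0.67, limma adjusted p = 0.383). In Cdk4 both knockout libraries were below both controls, and in Ccne2 both were above them. Ccnd3, a D-type cyclin gene, and Cdk6, a paralogue of Cdk4, had log2 fold changes of −0.52 and 0.24 (limma adjusted p = 0.528 and 0.779), and their groups overlapped. Without control library 1 they were −0.12 and 0.41, and without control library 2 they were −0.91 and 0.071.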

How the data were processed

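Poly(A) RNA-seq of 2 Ywhaz knockout and 2 control pools was read from 1 table. The authors deposited FPKM per library, their group means and their own log2 fold change, p-value and FDR, per the file headers. Tools listed without roles are HISAT2 2.1.0, RSEM, fastp 0.18.0, DESeq2, StringTie 1.3.1 and Bowtie2 2.2.8, with the build GRCm39, per the submitters' processing notes. The table holds no counts. With R 4.3.3, a limma 3.58.1 model with an intensity trend was fitted to log2(FPKM + 1) of 9544 genes, with Benjamini-Hochberg adjustment over all of them, on an intercept and the group. A log2(FPKM + 1) scale understates changes of low genes. Depth was estimated from single-transcript genes over 1500 bases, assuming 200-base fragments; 90.0% to 95.0% of low values lay within 10% of whole fragments.

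The 10 genes and all lists were chosen with earlier results of these data known. Beyond the 10 genes, the text names up to 4 genes per list by smallest limma p, plus Sfn, Trp63, Trp73, Bax, Gdf15 and Pmaip1, and the 3 genes most like the most variable of the 10. Of the list symbols, 2 were not matched in the table. Gene positions are those of GENCODE M21 on GRCm38 and sequences those of RefSeq on GRCm38.p6, neither the build named in the notes. Whether counting used strand is not stated in the labels or headers.

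The fit was tested on simulated data for knockout against control: over 9544 genes in 20 runs, 30.9% of 2-fold and 98.1% of 4-fold changes were recovered and 4.34% of calls were false. The simulated errors were independent normal draws with the spread that limma had fitted, so these rates hold under that model only. Alternatives varied the pseudocount, the filter, the scaling, the trend, the libraries used and the pairing.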

Additional observations from a re-analysis of the deposited data

How the results depend on the processing

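None of the 10 genes was called under any of the 14 alternatives run, and 134 of their 139 log2 fold changes kept their sign. Alternatives that varied only the filter, the trend or the pairing leave the fold change of a gene as it was. Signs could not turn there, so the 134 overstates how stable they are. The signs that turned were those of Ccng1 without control library 2, Cdkn1a without knockout library 1 and with median-of-ratios scaling (−0.0068), Mdm2 without knockout library 2 and Mdm4 without knockout library 1. With 1 library left out, the log2 fold changes ran from −0.26 to 0.14 for Ccng1, −0.098 to 0.26 for Cdkn1a, −0.013 to 0.65 for Mdm2 and −0.021 to 0.67 for Mdm4. Of 30 other p53 pathway genes with recomputed values, 19 moved by over 1.5 times without 1 library. The sign of Gdf15 turned (−0.22 to 0.29 without 1 library, −0.010 with median-of-ratios scaling and −0.025 after quantile normalization), as did that of Pmaip1 (−0.030 to 0.39 without 1 library). Trp53 stayed between −0.63 and −0.47. With all 4 libraries used and none paired, its limma adjusted p ran from 0.255 (median-of-ratios scaling) to 0.530 (low genes kept). With the replicate number as a block, the limma adjusted p of Trp53 was 0.682. The count of all genes called, 7, was 13 with TPM scaling, 4 with median-of-ratios scaling, 3 without the trend, and 0 after quantile normalization or when low genes were kept, where 1249 and 1400 had an unadjusted limma p under 0.05. Leaving out 1 library gave 15 to 205 calls, with the lone library of a group assumed to vary like the other group, and gave 0 to 1 call among the other p53 pathway genes, the 1 being Sfn. The log2 fold change of Ywhaz ran from −1.99 to −0.43 when 1 library was left out. With the replicate number as a block, Ywhaz passed (−1.21, limma adjusted p = 0.00246) and 38 genes were called. Same-numbered libraries deviated in opposite directions (correlation across genes −0.24), so a crossed pairing was added after seeing the data. It called 475 genes, 3 of them (Sfn, Chek2 and Cdc20) among the other p53 pathway genes, and Ywhaz at −1.21. The labels give no shared litter or day for a number, so neither pairing is a design of the study. The causes of these shifts were not tested. Depth was 16900000 to 17800000 fragments per library, and the number of pools, 2 per group, limits the precision.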

Other observations

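The deposited table assigns 74 genes to the KEGG p53 signaling pathway, of which 62 were expressed highly enough to be tested. Of these, 0 passed a limma adjusted p under 0.05. At an unadjusted limma p under 0.05 there were 7, against 11.1% of all genes tested, and the knockout mean was the higher in 4 and the lower in 3. The median log2 fold change of the 62 was 0.07, against 0.05 for all genes tested. In 14 both knockout libraries were above both controls, against 27.4% of all genes tested, and in 10 below them, against 14.0%. The ratio of Cdkn1a to Trp53 FPKM was 5.80 and 4.30 in knockout libraries, against 3.04 and 3.43 in control libraries, and the groups did not overlap. This ratio was chosen after its values were seen.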
